A study of Mus musculus with 6 samples.

Results

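Cholesterol and fatty acid synthesis was described here through 32 genes, chosen by name as enzymes, regulators and transporters of both pathways, in activated mouse lung ILC2s, the innate lymphocytes that answer IL-33 with type 2 cytokines. All 32 had a row in the deposited table of 16588 genes, and all 32 passed the filter on low counts. There were 3 libraries with the genotype label Cnr2 KO, called KO-labelled below, and 3 wild-type (WT) libraries with the label C57BL/6, from mice whose age is not given in the sources used here. The mice of both groups were given 0.5 µg of recombinant IL-33 into the nose on 3 days, and lung cells were taken on day 4. Sorted ILC2s were then cultured for 18 h and cDNA was made from 10 pg of RNA. Neither the kind of Cnr2 deletion nor whether animals were pooled is given in the sources used here. CB2, the cannabinoid receptor of immune cells, is the product of Cnr2, and the study set ILC2s carrying this label against wild-type ones. The series title speaks of adipose tissue, while the sample labels give lung as the source.

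Cells make cholesterol and fatty acids from acetyl-CoA in the cytosol. The transcription factors SREBP-1 and SREBP-2, encoded by Srebf1 and Srebf2, are held in the endoplasmic reticulum with the escort protein SCAP by INSIG proteins while sterols are plentiful, and are released to switch on these genes when sterols fall. The nuclear receptor LXR is activated by oxidised sterols and switches on the exporters Abca1 and Abcg1. Lymphocytes that are activated and about to divide raise lipid synthesis to build membranes.

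Total counts were 17867541 to 19399819 in the KO-labelled libraries and 19056174 to 129617689 in WT, where replicate 2 exceeded the average of the remaining 5 libraries 6.88 times. Levels below are counts scaled to library size (CPM) after TMM scaling, changes are log2 fold changes of the KO-labelled libraries over WT with an approximate standard error (SE), and called means an adjusted p under 0.05 in edgeR. Cnr2 itself went against its label, at 7.55, 7.42 and 7.49 CPM in the KO-labelled libraries and 3.99, 3.89 and 3.17 CPM in WT (log2 fold change 1.01, SE 0.16, edgeR adjusted p = 2.11e-05), so every direction below is one between labels. The 12 listed ILC2 markers all had a row and summed to 12240 to 13350 CPM in the KO-labelled libraries and 13290 to 13840 CPM in WT, led by Il5, which did not pass the test. Of these 12, 8 were higher, among them Gata3 (3.72-fold) and Thy1 (3.94-fold), and 3 were lower, Il2ra (2.03-fold), Il13 (1.88-fold) and Areg (1.74-fold). Over all genes tested, 33.1% were higher and 33.2% lower.

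Of the 32 genes, 17 were lower, 5 were higher and 10 did not pass the test in the KO-labelled libraries. In bulk RNA, fewer cells of a type and less RNA per cell cannot be told apart. Among all 12150 genes tested, 33.2% were lower and 33.1% higher, so that 66.3% were called, close to the 68.8% called among the 32 genes. The share called is therefore no result about these pathways. By direction, 53.1% of the members were lower and 15.6% higher. The members were chosen with earlier results of these data known, so this split is given as description only. The median log2 fold change was -0.15 over the members and 0.01 over all genes tested. Most changes were small: the median size of change was 1.21-fold over the members and 1.32-fold over all genes tested. A call with at least a 1.5-fold difference was made for 18.8% of the members, against 32.6% of all genes tested. The KO-labelled and WT values were fully apart in 22 of the 32 genes, or 68.8%, and in 68.8% of all genes tested.

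**Figure D1:**
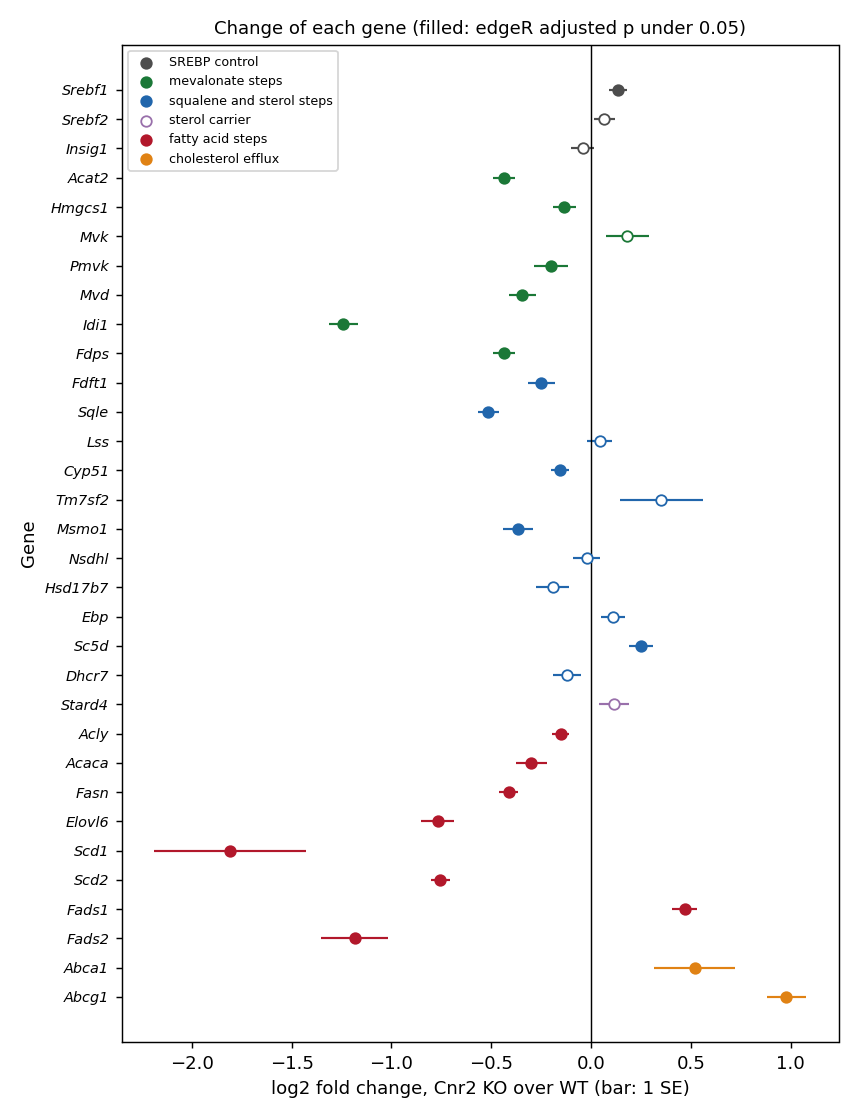
Log2 fold change of each of the 32 genes in the KO-labelled libraries over WT (horizontal axis, bar 1 SE), grouped by role, with filled points for edgeR adjusted p under 0.05. Of the 17 genes that were lower, 6 act in the mevalonate steps and 7 in the fatty acid steps, while both efflux genes lie to the right of 0.

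The 3 SREBP regulators among the members, Srebf1, Srebf2 and Insig1, differed little between the groups. Of the further genes given below, Scap was 1.32-fold lower and Insig2 1.23-fold higher in the KO-labelled libraries. Srebf1 was 1.10-fold higher, at 255.5, 261.8 and 257.2 CPM in the KO-labelled libraries and 227.9, 245.3 and 231.7 CPM in WT (log2 fold change 0.13, SE 0.05, edgeR adjusted p = 0.0158). The groups did not overlap, but the adjusted p was 0.679 after a correction for GC content and gene length and 0.0554 to 0.0928 without KO-labelled replicate 2 or without WT replicate 1 or 3. Exons of Srebf1 overlap those of Rai1, which was higher in the KO-labelled libraries (log2 fold change 0.76). Without a stated strand setting, reads of the overlap cannot be assigned between the genes, and their part in the Srebf1 value was not tested. Srebf2 stood at 445.7, 417.9 and 377.0 CPM in the KO-labelled libraries and 396.2, 399.9 and 388.0 CPM in WT (log2 fold change 0.07, SE 0.05, edgeR adjusted p = 0.278). Its KO-labelled replicate 3 was below every WT library and the other 2 were above, and without that library Srebf2 passed as higher (log2 fold change 0.13, adjusted p = 0.0304). Insig1, itself an SREBP target and the sterol-regulated brake on SREBP release, was at 131.3, 142.3 and 137.9 CPM in the KO-labelled libraries and 134.5, 152.8 and 134.9 CPM in WT, with overlapping groups and an adjusted p of 0.528.

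Of the 7 genes of the mevalonate steps, which turn acetyl-CoA into the isoprenoid farnesyl diphosphate, 6 were lower in the KO-labelled libraries. The share called was 85.7%, all lower, against 66.3% called and 33.2% lower among all genes tested. Idi1 (chromosome 13, 8885501 to 8892451, GRCm38), the isomerase that makes the activated isoprene unit, differed most. It had 173.7, 178.0 and 164.6 CPM in the KO-labelled libraries and 365.3, 470.7 and 380.1 CPM in WT. This was a 2.36-fold lower level (log2 fold change -1.24, SE 0.07, edgeR adjusted p = 2.04e-11), and the WT libraries were both higher and more spread. Fdps, farnesyl diphosphate synthase, was at 175.5, 180.7 and 158.3 CPM in the KO-labelled libraries and 237.6, 240.1 and 217.7 CPM in WT, 1.35-fold lower (edgeR adjusted p = 1.27e-06). Acat2, the thiolase that joins the first pair of acetyl-CoA units, was lower by the same factor, at 73.1, 73.5 and 72.2 CPM in the KO-labelled libraries and 95.2, 102.1 and 97.9 CPM in WT. Both genes kept a gap between the groups that was wider than the spread within either.

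The kinases and the synthase between these steps changed less. Mvd, the decarboxylase that makes isopentenyl diphosphate, was 1.27-fold lower, at 44.4 to 50.5 CPM in the KO-labelled libraries and 60.2 to 63.4 CPM in WT (log2 fold change -0.34, SE 0.07, edgeR adjusted p = 1.75e-04). Hmgcs1, the synthase that makes HMG-CoA, was at 111.6, 106.9 and 99.3 CPM in the KO-labelled libraries and 112.6, 121.6 and 113.6 CPM in WT (log2 fold change -0.13, SE 0.06, edgeR adjusted p = 0.0453). Its groups came close without touching. With WT replicate 2 thinned to the depth of the others the adjusted p was 0.0584, and it was 0.0896 to 0.211 without KO-labelled replicate 2 or 3 or without WT replicate 2. Pmvk, phosphomevalonate kinase, was 1.15-fold lower with overlapping groups, 29.1, 35.7 and 30.5 CPM in the KO-labelled libraries and 36.9, 37.8 and 34.4 CPM in WT (edgeR adjusted p = 0.0419, 0.0614 in DESeq2 and 0.317 after the GC and length correction). Mvk, mevalonate kinase, had 12.7, 15.2 and 15.2 CPM in the KO-labelled libraries and 12.4, 12.5 and 13.1 CPM in WT and did not pass (log2 fold change 0.18, adjusted p = 0.147).

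**Figure D2:**
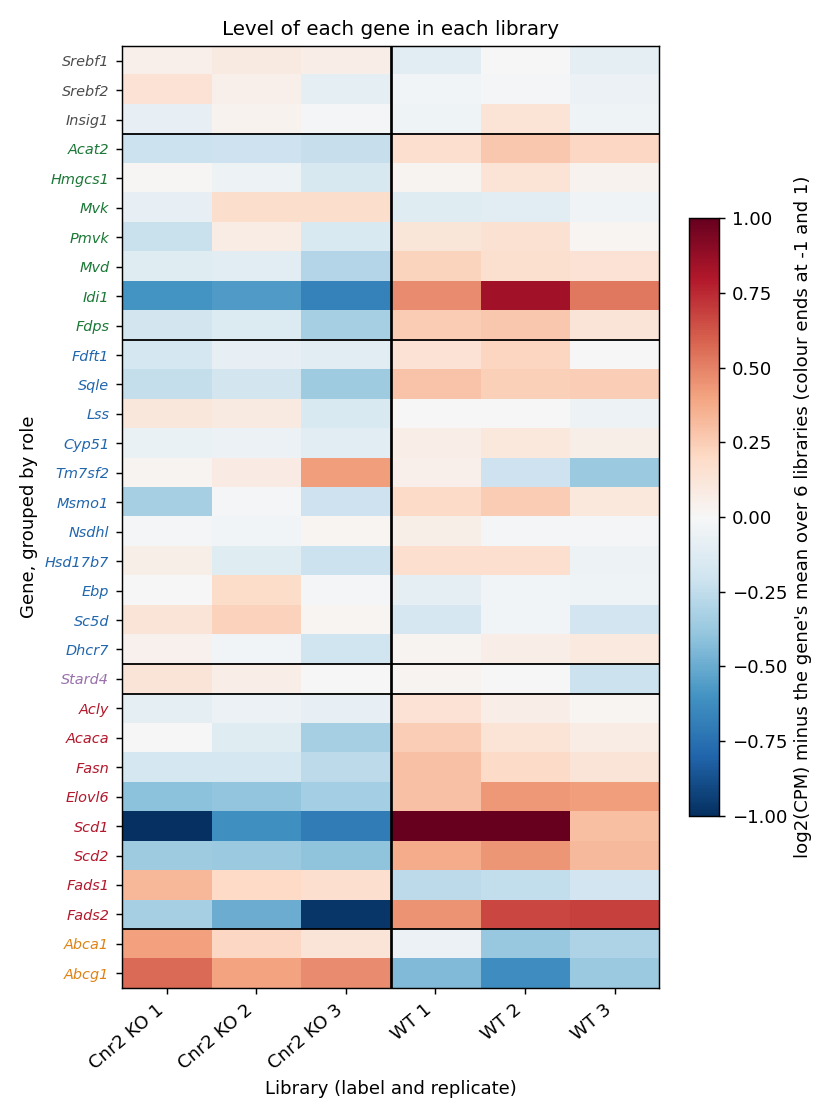
Level of each gene in each library as log2 CPM minus the gene's mean over the 6 libraries (colour, ending at -1 and 1), with the KO-labelled libraries left of WT and genes grouped by role. Idi1, Scd2, Elovl6 and Fads2 are below their mean in all 3 KO-labelled libraries, and Abcg1 and Fads1 are above it.

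In the 11 genes that turn farnesyl diphosphate into cholesterol, 4 were lower, 1 was higher and 6 did not pass. The share called was 45.5%, against 66.3% of all genes tested, of which 33.2% were lower and 33.1% higher. The lower ones were Sqle, Fdft1, Cyp51 and Msmo1. Sqle, squalene epoxidase, was at 147.3, 153.2 and 135.4 CPM in the KO-labelled libraries and 211.7, 205.3 and 206.1 CPM in WT, 1.43-fold lower with no overlap (log2 fold change -0.51, SE 0.05, edgeR adjusted p = 4.73e-08). Fdft1, squalene synthase, was 1.19-fold lower, at 50.1 to 53.4 CPM in the KO-labelled libraries and 56.5 to 65.5 CPM in WT (edgeR adjusted p = 3.39e-03). Cyp51, the lanosterol demethylase, was 1.11-fold lower, at 185.1 to 192.3 CPM in the KO-labelled libraries and 207.9 to 215.7 CPM in WT (edgeR adjusted p = 5.50e-03). Exons of Fdft1 overlap those of Ctsb, and exons of Cyp51 overlap those of Akap9. Both of these neighbours were higher in the KO-labelled libraries (log2 fold changes 0.24 and 0.41). The part of their reads in the Fdft1 and Cyp51 values was not tested. Msmo1, the methylsterol oxidase that follows Cyp51, was 1.29-fold lower, at 52.1, 65.0 and 56.8 CPM in the KO-labelled libraries and 74.9, 78.0 and 70.7 CPM in WT (edgeR adjusted p = 2.37e-04).

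Of the other sterol genes, 1 was higher and 6 did not pass. Sc5d, the desaturase near the end of the path, was the only one of the 11 that was higher, at 115.8, 124.0 and 107.2 CPM in the KO-labelled libraries and 94.3, 103.7 and 92.4 CPM in WT (log2 fold change 0.25, SE 0.06, edgeR adjusted p = 1.63e-03). Dhcr7, the reductase that completes cholesterol, was at 44.2 to 52.1 CPM in the KO-labelled libraries and 51.6 to 54.1 CPM in WT (log2 fold change -0.12, adjusted p = 0.137), with overlapping groups. It passed as lower after the GC and length correction (log2 fold change -0.20, adjusted p = 0.0138). Ebp, the sterol isomerase, was at 80.7 to 92.5 CPM in the KO-labelled libraries and 76.1 to 80.1 CPM in WT without overlap, did not pass (log2 fold change 0.11, adjusted p = 0.126), and passed as higher with that correction (0.26, adjusted p = 6.84e-04). Hsd17b7, a sterol ketone reductase, was just outside the threshold (log2 fold change -0.19, edgeR adjusted p = 0.0512) and inside it in 8 of 14 other settings. Lss, lanosterol synthase, Nsdhl, a sterol dehydrogenase, and Tm7sf2, a sterol reductase, had log2 fold changes of 0.04, -0.02 and 0.35 and adjusted p-values of 0.551, 0.793 and 0.148, and their groups overlapped. Lss passed as higher without KO-labelled replicate 3 (log2 fold change 0.12, adjusted p = 0.0486). Tm7sf2 was low, at a mean of 4.0 CPM in the KO-labelled libraries and 3.1 CPM in WT. Its exons overlap those of Vps51, at 47.8 CPM in the KO-labelled libraries and 48.6 CPM in WT. The part of Vps51 reads in the Tm7sf2 value was not tested. Stard4, which carries sterols between membranes, was at 44.6 to 49.0 CPM in the KO-labelled libraries and 38.5 to 45.7 CPM in WT and did not pass (adjusted p = 0.193).

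All 8 genes of the fatty acid steps were called, 7 lower and 1 higher in the KO-labelled libraries, with no overlap between the groups in any of them; over all genes tested 66.3% were called and 68.8% had no overlap. The enzymes that make palmitate from citrate were lower by modest factors. Fasn (chromosome 11, 120805846 to 120824547), fatty acid synthase, was the most counted member, at 622.1, 621.4 and 587.1 CPM in the KO-labelled libraries and 862.7, 802.1 and 770.6 CPM in WT. It was 1.33-fold lower (log2 fold change -0.41, SE 0.05, edgeR adjusted p = 3.59e-07). Acly, which splits citrate into acetyl-CoA, was 1.11-fold lower, at 515.5 to 528.0 CPM in the KO-labelled libraries and 556.8 to 606.5 CPM in WT (edgeR adjusted p = 5.34e-03). Acaca, the carboxylase that commits acetyl-CoA to fatty acids, was 1.23-fold lower, at 53.7, 49.3 and 42.7 CPM in the KO-labelled libraries and 63.9, 59.1 and 56.6 CPM in WT (edgeR adjusted p = 2.56e-03). The gap between the nearest libraries of the 2 groups was narrow for Acaca and Acly and wide for Fasn.

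The enzymes that lengthen and desaturate palmitate changed by more. Elovl6, which extends palmitate to stearate, was at 18.6, 18.8 and 19.6 CPM in the KO-labelled libraries and 30.4, 33.4 and 33.0 CPM in WT, 1.70-fold lower (log2 fold change -0.77, SE 0.08, edgeR adjusted p = 1.05e-07). Scd2 (chromosome 19, 44293674 to 44306864), a stearoyl-CoA desaturase that makes oleate, was at 223.9, 221.5 and 217.2 CPM in the KO-labelled libraries and 369.9, 388.8 and 358.2 CPM in WT (log2 fold change -0.75, SE 0.05, edgeR adjusted p = 4.24e-11). It was 1.69-fold lower, and the SD was 3.38 CPM in the KO-labelled libraries and 15.4 CPM in WT. Scd1 (chromosome 19, 44394455 to 44407879), the paralog that dominates in liver, was near the floor, with 7, 11 and 10 counts in the KO-labelled libraries and 40, 251 and 21 counts in WT, or 0.36, 0.59 and 0.55 CPM against 2.10, 1.94 and 1.11 CPM. It was 3.50-fold lower (log2 fold change -1.81, SE 0.38, edgeR adjusted p = 3.65e-04). No source used here gives the rule for reads shared by paralogs, and the few Scd1 counts may include reads of Scd2, which lies 87590 bases away, and this was not tested.

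The desaturases of polyunsaturated fatty acids, Fads1 and Fads2, went in opposite directions although they lie 81141 bases apart on chromosome 19. Fads1 (10182888 to 10196877) was at 80.8, 73.5 and 71.9 CPM in the KO-labelled libraries and 53.4, 54.0 and 56.3 CPM in WT, 1.38-fold higher (log2 fold change 0.47, SE 0.06, edgeR adjusted p = 2.56e-06). Fads2 (10062765 to 10101746) had 91, 78 and 54 counts in the KO-labelled libraries and 153, 1207 and 179 in WT, or 4.67, 4.17 and 2.99 CPM against 8.04, 9.35 and 9.46 CPM. It was 2.27-fold lower (log2 fold change -1.18, SE 0.17, edgeR adjusted p = 4.51e-06). Per kilobase of exon, the ratio of Fads1 to Fads2 was 13.5 ± 2.59 in the KO-labelled libraries and 4.19 ± 0.316 in WT (SD, n = 3 each), and the values of the 2 groups did not overlap.

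Both exporters of cholesterol were higher in the KO-labelled libraries. Abcg1 (chromosome 17, 31057675 to 31117988), which passes cholesterol to lipoprotein particles, was at 26.8, 23.8 and 25.01 CPM in the KO-labelled libraries and 13.3, 11.8 and 13.9 CPM in WT. This was a 1.97-fold difference (log2 fold change 0.98, SE 0.10, edgeR adjusted p = 4.45e-08), the largest rise among the 32 genes. Abca1 (chromosome 4, 53030787 to 53159895), which loads lipid onto apolipoproteins, had 93, 78 and 71 counts in the KO-labelled libraries and 66, 357 and 55 in WT, or 4.78, 4.17 and 3.94 CPM against 3.47, 2.76 and 2.91 CPM. It was 1.43-fold higher (log2 fold change 0.52, SE 0.20, edgeR adjusted p = 0.0303) and lost the call in 7 of 14 other settings, among them DESeq2 (adjusted p = 0.0701), WT replicate 2 thinned (0.0690), the GC and length correction (0.0910) and 4 of the 6 fits that left out a library (0.0516 to 0.132).

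**Figure D3:**
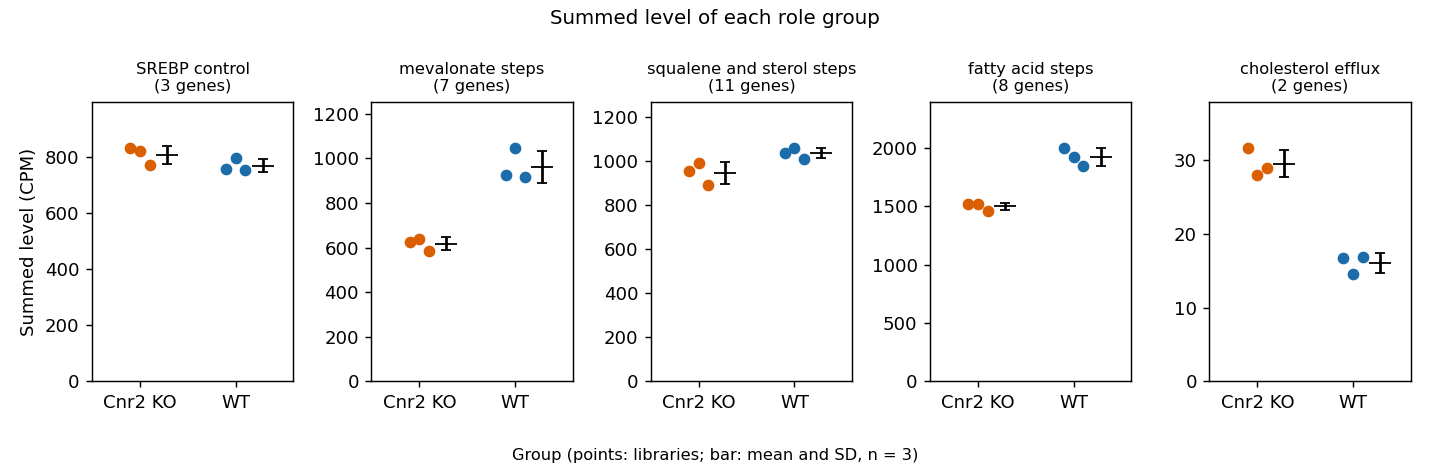
Summed CPM of the genes of each role in every library (points), with the mean and SD of 3 libraries, for the KO-labelled libraries (left) and WT (right); each axis starts at 0. The mevalonate and fatty acid sums are lower, and the efflux sum higher, in every KO-labelled library than in every WT library.

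Summed over each role, the mevalonate genes came to 616.8 ± 29.0 CPM in the KO-labelled libraries and 962.0 ± 72.3 CPM in WT (SD, n = 3 each). The fatty acid genes came to 1499 ± 32.9 CPM in the KO-labelled libraries and 1921 ± 77.6 CPM in WT. Idi1 and Fasn are the largest parts of these sums, at 36.6% and 41.6% of the mean over the 6 libraries. The squalene and sterol genes came to 945.0 ± 48.7 CPM in the KO-labelled libraries and 1034 ± 23.7 CPM in WT, and the efflux genes to 29.5 ± 1.86 CPM in the KO-labelled libraries and 16.04 ± 1.32 CPM in WT. The 3 SREBP regulators among the members overlapped, at 808.8 ± 32.3 CPM in the KO-labelled libraries and 770.4 ± 24.0 CPM in WT. No p is given for these sums, since the genes were chosen with earlier results known.

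Levels of different genes were compared per kilobase of annotated exon, as TPM. The length counts every base in any annotated exon of a gene, such as 4208 for Fdps and 10787 for Lss. Where the transcript expressed is shorter, the level is set too low, so the order below holds only for these lengths. Which transcripts were expressed was not tested. Acly led in the KO-labelled libraries, at 357.3 ± 0.898 TPM, followed by Srebf2 at 208.4 ± 18.6, Fasn at 201.8 ± 7.06 and Idi1 at 177.7 ± 6.71 TPM (SD, n = 3). In WT the order was Idi1 at 407.1 ± 57.3, Acly at 386.4 ± 20.1, Fasn at 261.1 ± 17.3 and Scd2 at 239.8 TPM. Srebf2 and Fasn in the KO-labelled libraries were closer to each other than either SD, and Idi1 and Acly in WT were closer than the SD of Idi1. Scd2 exceeded Scd1 by 415.4 ± 123.4 times in the KO-labelled libraries and 208.6 ± 70.5 times in WT. At the low end, Abca1 was at 1.5 ± 0.165 TPM in the KO-labelled libraries and 1.03 ± 0.133 TPM in WT, and Scd1 at 0.370 ± 0.0878 and 1.24 ± 0.392 TPM, so that Scd1 was last in the KO-labelled libraries and Abca1 in WT.

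**Figure D4:**
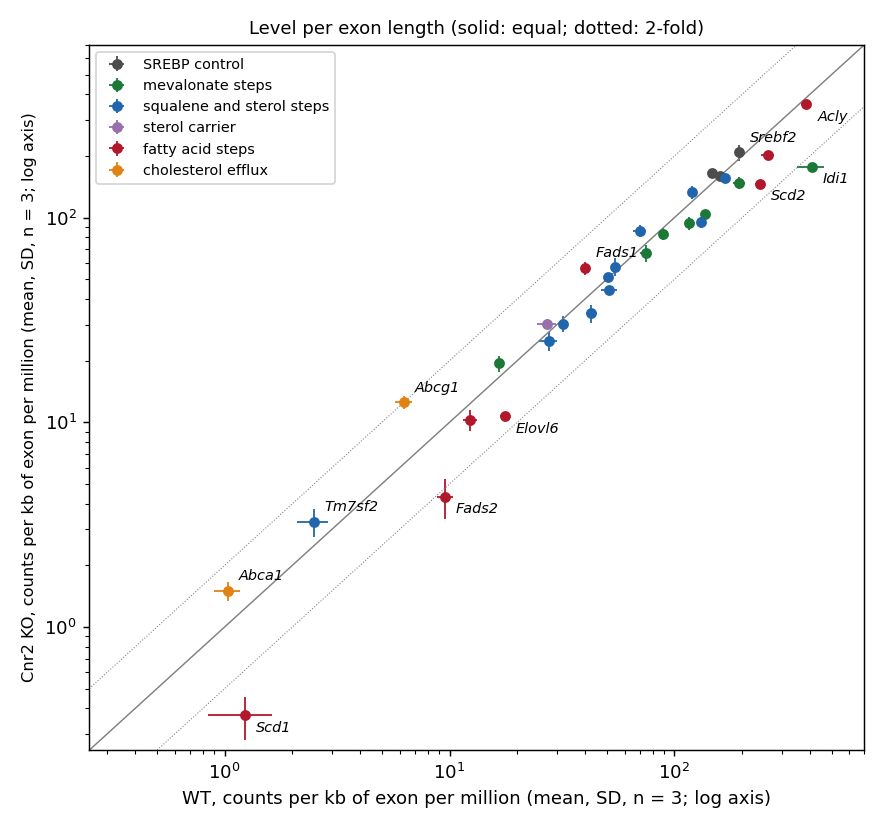
Mean level per kilobase of exon (TPM, SD, n = 3) in the KO-labelled libraries (vertical) against WT (horizontal), both on log axes, coloured by role; the solid line marks equal levels and the dotted lines a 2-fold difference. Idi1, Fads2 and Scd1 lie below the lower dotted line, and Abcg1 lies on the upper one.

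The promoters of 24 of the 32 genes, 29 start sites in all, were found in RefSeq (GRCm38.p6), each from 250 bases before to 50 after the start. No promoter was found for the other 8, Fdps, Fdft1, Sqle, Stard4, Scd1, Scd2, Fads1 and Abcg1. The promoter counts leave these genes out, among them some with large changes. SREBPs bind sterol regulatory elements together with the factors NF-Y, at CCAAT boxes, and Sp1, at GGGCGG boxes, so these letters were searched on both strands. CCAAT was in 69.0% of the member promoters, 38.3% of the promoters of tested genes and 37.4% of all 32851 promoters. GGGCGG was in 75.9% of the member promoters, 62.8% of those of tested genes and 35.7% of all. The sterol element letters TCACNCCAC were in 1 member promoter, 3.45%, and in 1.24% of all promoters. CACNCCAC, which lies within it, was in 10.3% of the member promoters and 6.24% of all. The LXR element searched, an exact pair of AGGTCA sites 4 bases apart, was in 0 of the 29 member promoters and in 0.0152% of all. It was also in 0 of the 11826 promoters of tested genes, so this search cannot tell the members from other genes. Abcg1 had no promoter to search, and looser forms of the element were not searched. Shown here are the 150 bases before the start of 4 genes: Hmgcs1 holds the full sterol element, Insig1 the shorter letters, Idi1 has the largest change among genes with a promoter, and Fasn is the most counted. Capitals mark CCAAT and CACNCCAC on either strand. The starts are those of RefSeq. The GENCODE annotation, which gave the gene positions printed here, starts Idi1 at 8885501 and Insig1 at 28071363. By that annotation the marked letters of Idi1 and Insig1 lie inside the gene.
Hmgcs1, plus strand, chr13:119690201-119690350: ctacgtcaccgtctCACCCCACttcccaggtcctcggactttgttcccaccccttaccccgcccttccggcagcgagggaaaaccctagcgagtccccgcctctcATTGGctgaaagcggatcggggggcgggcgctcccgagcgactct
Insig1, plus strand, chr5:28071262-28071411: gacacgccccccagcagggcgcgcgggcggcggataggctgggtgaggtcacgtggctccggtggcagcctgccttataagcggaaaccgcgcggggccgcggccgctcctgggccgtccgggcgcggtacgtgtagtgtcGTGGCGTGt
Idi1, plus strand, chr13:8885456-8885605: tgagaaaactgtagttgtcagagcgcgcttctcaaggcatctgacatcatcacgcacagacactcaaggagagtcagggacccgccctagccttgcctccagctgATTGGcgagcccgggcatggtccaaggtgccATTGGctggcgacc
Fasn, minus strand, chr11:120824548-120824697: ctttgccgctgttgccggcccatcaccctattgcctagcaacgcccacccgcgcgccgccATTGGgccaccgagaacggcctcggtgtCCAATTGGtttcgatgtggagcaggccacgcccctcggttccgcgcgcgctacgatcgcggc

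In Hmgcs1 and Idi1 an ATTGG begins 45 bases before the RefSeq start, and Idi1 has another at 14. In Fasn an ATTGG begins 90 bases before the start, and a CCAAT at 62 overlaps an ATTGG at 59. CCAAT was present in 8 of 12 lower genes with a promoter, in 2 of 3 higher ones and in 9 of 9 that did not pass. Hmgcs1 and Acat2 were lower and hold CACNCCAC, as does Insig1, whose level did not pass the test. The E-box CACGTG, which reads the same on both strands, was in 0 of 12 lower genes, 2 of 3 higher ones, Sc5d and Abca1, and 3 of 9 others, and in 17.2% of the member promoters, 10.3% of those of tested genes and 7.15% of all. These are matches of letters and say nothing of binding.

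Of 37 further genes of the same pathways, 33 were tested, and 16 were higher and 11 lower in the KO-labelled libraries. The share called was 81.8%, against 66.3% of all genes tested, of which 33.1% were higher and 33.2% lower. Among 6 genes of SREBP processing, 3 were higher and 1 lower. Scap, the escort of SREBPs, was 1.32-fold lower, at 138.0, 136.5 and 129.1 CPM in the KO-labelled libraries and 176.8, 165.2 and 191.1 CPM in WT (edgeR adjusted p = 4.47e-06), and Insig2, the second INSIG, was 1.23-fold higher (1.83e-03). Among 6 other isoprenoid and sterol genes, 1 was higher and 2 lower. Tmem97, a sterol-binding membrane protein, was 2.01-fold lower, at 118.4, 117.2 and 114.9 CPM in the KO-labelled libraries and 241.8, 235.5 and 227.3 CPM in WT (edgeR adjusted p = 8.84e-13). Lbr, a lamin receptor with sterol reductase activity, was 1.35-fold higher (3.80e-08) and Aacs, acetoacetyl-CoA synthetase, 1.09-fold lower (0.0350, and 0.0603 to 0.165 in 4 of the 6 fits that left out a library).

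Other fatty acid genes split evenly, with 6 of 13 higher and 7 lower. The share called was 100%, against 66.3% of all genes tested, where 33.1% were higher and 33.2% lower. Hacd3, a dehydratase of fatty acid elongation, was at 235.8, 246.3 and 226.2 CPM in the KO-labelled libraries and 554.5, 584.9 and 589.0 CPM in WT, 2.44-fold lower (edgeR adjusted p = 2.43e-14). Slc25a1, which exports the citrate that Acly splits, was 1.62-fold lower (3.57e-09), while Elovl5, an elongase of polyunsaturated fatty acids, was 1.47-fold higher (1.47e-08). Genes of sterol storage, transport and LXR had 6 higher and 1 lower of 8 tested, or 87.5% called against the same 66.3%. Mylip, a ubiquitin ligase that LXR induces, was at 5.34, 4.86 and 5.99 CPM in the KO-labelled libraries and 1.68, 1.64 and 2.33 CPM in WT, 2.95-fold higher (edgeR adjusted p = 4.86e-06). Lipa, the lysosomal acid lipase that frees cholesterol, was 1.71-fold higher (3.61e-07) and Npc2, which hands it on within lysosomes, 1.41-fold higher (2.27e-07). The median log2 fold change was 0.12 for the SREBP processing genes, -0.03 for the other isoprenoid and sterol genes, -0.24 for the other fatty acid genes and 0.35 for this last group, against 0.01 over all genes tested.

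Markers of other lung cells are given for these sorted and cultured cells. Of 10 macrophage markers 3 had a row, with sums of 3.44 to 5.66 CPM in the KO-labelled libraries and 1.05 to 1.67 CPM in WT, led by Cd68, and Adgre1 had 0 counts in WT. Of 9 markers of alveolar epithelium 6 had a row, with 55.0 to 61.2 CPM in the KO-labelled libraries and 25.2 to 29.2 CPM in WT, led by Epcam, and Sftpd had 0 counts in the KO-labelled libraries. Epcam was higher, at 46.4 CPM in the KO-labelled libraries and 10.9 CPM in WT, and Abca3 was lower, at 11.1 CPM in the KO-labelled libraries and 14.8 CPM in WT (edgeR adjusted p = 3.71e-03). Cdh1, too low to be tested, was at 0.0883 CPM in the KO-labelled libraries and 0.782 CPM in WT. Dendritic markers, 5 of 7, summed to 20.4 to 25.6 CPM in the KO-labelled libraries and 10.9 to 13.5 CPM in WT, led by Xcr1, with Batf3 at 0 counts in the KO-labelled libraries. T cell markers, 7 of 11, summed to 113.9 to 122.6 CPM in the KO-labelled libraries and 66.0 to 67.9 CPM in WT, led by Trbc2. Of the 6 tested, 4 were higher and 1 lower, while 33.1% were higher and 33.2% lower over all genes tested. The lower one was Trac, at 0.464 CPM in the KO-labelled libraries and 1.48 CPM in WT (edgeR adjusted p = 1.28e-03). Lck, at 4.78 CPM in the KO-labelled libraries and 6.00 CPM in WT, did not pass. B cell markers, 1 of 5, came to 25.1 to 26.3 CPM in the KO-labelled libraries and 16.1 to 17.2 CPM in WT, all Cd79b. Endothelial markers, 1 of 5, were at 39.3 to 40.3 CPM in the KO-labelled libraries and 105.9 to 114.3 CPM in WT, all Pecam1. Fibroblast markers, 5 of 6, summed to 1.44 to 6.04 CPM in the KO-labelled libraries and 1.32 to 5.15 CPM in WT, neutrophil markers, 2 of 6, to 0.103 to 0.943 CPM in the KO-labelled libraries and 0.00774 to 0.210 CPM in WT, and the adipocyte marker Fabp4, 1 of 7, to 0 to 0.0514 CPM in the KO-labelled libraries and 0 to 0.158 CPM in WT. The part of these cells in the changes of Abca1, Abcg1 and the other members was not tested.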

How the data were processed

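The authors deposited expected counts, estimated counts per gene and library, of which 59.08 to 81.23% lay within 0.02 of an integer. The submitters' processing notes name Partek 10.0, STAR 2.7.8, DESeq2 and mm10 without saying what each did. How reads were counted, and with which strand setting, is not given in the sources used here.

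Counts were rounded and tested with the quasi-likelihood test of edgeR 4.0.16 under R 4.3.3. Scaling was TMM, filterByExpr kept genes at a minimum count of 10 and a minimum total of 15, genotype was the only term and Benjamini-Hochberg adjustment ran over the 12150 tested genes. The SE is the absolute log2 fold change divided by the square root of F. CPM uses the TMM library sizes. TPM uses the exon length of GENCODE M21 (GRCm38, the build named mm10), which matched 16230 genes and gave the positions printed. The labels do not tie replicates to separate mice or cultures: the p-values cover the spread among these libraries only, and that spread may be technical. Within a group, libraries differed beyond sampling noise (chi-square per gene 4.15 to 8.07).

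The members and lists were chosen with earlier results of these data known. Named were all members, the 3 called genes with the smallest p of each further list, Cnr2, and the most abundant gene of each marker list; the neighbours of members, and the marker genes Gata3, Thy1, Il2ra, Il13, Areg, Trac, Lck, Abca3, Cdh1, Adgre1, Sftpd and Batf3 were named after their values were seen. A gene that this rule names is not reported here. Alternatives were DESeq2 1.42.0 and its size factors, no filter, a minimum count of 50, limma-voom (limma 3.58.1) with quality weights, a replicate block, each library left out, WT replicate 2 thinned, other thresholds, and a GC and length offset (GC content known for 11950 tested genes).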

Additional observations from a re-analysis of the deposited data

How the results depend on the processing

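The number of members called higher (5) was 3 at an adjusted p under 0.01 and 1 with at least a 1.5-fold difference, and ranged from 3 to 7 over the fits that left out a library, with 3 without KO-labelled replicate 2 or without WT replicate 3 and 7 without KO-labelled replicate 3, where Srebf2 and Lss were added. The number called lower (17) was 5 with at least a 1.5-fold difference and 15 to 18 without a library. Of the further genes, 16 higher and 11 lower became 3 and 3 with at least a 1.5-fold difference, and 14 to 17 and 10 to 11 without a library. Cnr2 was called higher in all 14 other fits (log2 fold change 0.92 to 1.07). Across those fits 23 of the 32 members kept their call, 9 did not in at least 1 (Srebf1, Srebf2, Hmgcs1, Pmvk, Lss, Hsd17b7, Ebp, Dhcr7 and Abca1), and 0 called members changed sign. Of members that did not pass, Srebf2, Lss, Insig1 and Nsdhl had log2 fold changes of -0.10, -0.09, 0.08 and 0.11 with the GC and length offset, opposite in sign to the values without it. The cause was not tested. Scd1 was not tested with the minimum count of 50. The median log2 fold change of all genes lay between -0.0073 and 0.0143 over these fits. Same-numbered libraries correlated at 0.006 to 0.066 in their deviations from the group means, so the numbers were not taken to pair them. With the replicate block 5 members were higher and 18 lower, Hsd17b7 being the addition (adjusted p = 0.0236). Scd1, Fads2, Abca1 and Tm7sf2 are limited by depth, with fewer than 100 counts in some library.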

Other observations

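KO-labelled replicate 3 had the lowest level of its group in 20 of the 32 genes, and WT replicate 3 in 18. WT replicate 2, the deepest library, had the highest level of its group in 17. These counts were not set against all genes tested, so they are not read as a trait of these pathways. The coefficient of variation within a group had a median of 6.58% in the KO-labelled libraries and 4.87% in WT, with ranges of 0.903 to 24.6% in the KO-labelled libraries and 1.54 to 31.0% in WT.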
